A study of Mus musculus with 4 samples.

Results

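The miRNA names from miR-6896-3p to miR-7088-3p are the 3p arms, the strands cut from the 3′ side of a hairpin, of a run of late-numbered mouse miRNAs. They were taken from the count table by name alone, without use of their counts, and were 195 of its 1900 names. Counts came from 4 small RNA libraries, made after RNA immunoprecipitation (RIP) for AGO2 from freshly dissected tissue of the olfactory bulb. The mice were C57BL/6 and had been injected 8 weeks before. In the GFP-AGO2 group (n = 2) the mice carried the viral vector LV.PGK.GFP-AGO2, which gives AGO2 fused to a green fluorescent protein. In the Control group (n = 2) they were sham-injected and carried no vector. The labels state the strain for both groups alike, name newborn neurons of the bulb as the cells of interest, and give the replicate numbers 1 and 3 in each group. The labels do not say whether a library came from 1 mouse or several, so a p-value here speaks of the scatter among these 4 libraries, which may be technical. PGK names a promoter that is active in most cell types. Which antibody was used was not stated in these sources, so what the Control libraries hold, whether RNA on endogenous AGO2 or carry-over of the procedure, is not known here.

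AGO2 is the Argonaute protein that holds a mature miRNA and pairs its seed, bases 2 to 8, with target RNAs. Most miRNA hairpins are cut out of a primary transcript by the nuclease Drosha and then trimmed by Dicer. A mirtron is a hairpin made in another way: the splicing machinery cuts out a short intron, the intron lariat is opened, and Dicer cuts the folded intron into its arms. The 3p arm of a mirtron therefore ends at the splice acceptor, the AG at the end of an intron, and holds part of the tract rich in C and U that lies before it. In a tailed mirtron only one arm lies at an intron end, and the rest of the intron is a tail that has to be removed. Mirtrons are known for low counts in small RNA libraries and for U added to their 3′ ends after cutting.

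RefSeq (GRCm38.p6) held a mature sequence for 170 of the 195 names. Of the 10 with the highest mean share of the counts, which held 58.9% of all counts of the group, 9 are shown first; capitals mark the seed.

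miR-6944-3p: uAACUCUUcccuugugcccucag

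miR-6988-3p: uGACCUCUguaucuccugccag

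miR-7019-3p: uCACCUUGgccgccucucugcag

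miR-7015-3p: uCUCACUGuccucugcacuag

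miR-6914-3p: uCUGUCCAccucuucccag

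miR-7070-3p: cAGGCUCUccuucccuccag

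miR-6945-3p: uCUGAGCUcugcccuucccau

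miR-7068-3p: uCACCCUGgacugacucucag

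miR-6906-3p: gAAUUCCGgucuccucuccag

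Of these 9, 8 end in AG, and miR-6945-3p ends 2 bases before the end of its intron. No seed occurs more than once among them. MiR-7004-3p is shown because its count was lower in GFP-AGO2, and miR-6992-3p, miR-6927-3p, miR-7018-3p and miR-7023-3p because they share a seed with miR-7015-3p, miR-6945-3p or miR-7068-3p.

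miR-7004-3p: cCCACUCCcuccuucacgcag

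miR-6992-3p: uCUCACUGaugaucauuugcag

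miR-6927-3p: cCUGAGCUggcuccccugcag

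miR-7018-3p: uCACCCUGcugccggcuugcag

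miR-7023-3p: uCACCCUGucugcgccccucag

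The hairpins of miR-6944 and miR-7080 show the mirtron form and that of miR-6988 the tailed form; here capitals mark the 3p arm.

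miR-6944: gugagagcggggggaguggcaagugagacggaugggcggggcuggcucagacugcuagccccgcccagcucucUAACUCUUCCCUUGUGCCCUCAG

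miR-7080: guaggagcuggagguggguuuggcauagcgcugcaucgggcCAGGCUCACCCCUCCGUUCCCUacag

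miR-6988: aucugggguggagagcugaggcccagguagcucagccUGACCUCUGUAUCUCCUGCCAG

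The hairpin of miR-6944 is the whole 96-base intron of Dbn1 (chr13:55477681-55477776, minus strand), from its GU donor to its AG acceptor. Dbn1 encodes drebrin, an actin-binding protein of dendritic spines. The hairpin of miR-7080 is the whole 67-base intron of Cpne7 (chr8:123130106-123130172, plus strand), a copine gene, and its annotated 3p arm stops 4 bases before the acceptor end. The miR-6988 hairpin covers the last 59 bases of an 82-base intron of Syvn1 (chr19:6051334-6051392, plus strand), which encodes a ubiquitin ligase of the endoplasmic reticulum.

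The label of the group as mirtron-type was compared with the GENCODE M21 gene models of the same genome build (GRCm38, also called mm10). How these names came to be given was not stated in these sources, so this describes the group and is no independent check. All 195 names lay in an intron on the same strand, 1 of them with an overhang of 3 bases. Of these, 151 (77.4%) ended exactly at the last base of the intron, and 181 (92.8%) within 2 bases of it. Among the 574 other 3p names of the table, leaving out those numbered from 5000 up to the members, 24 (4.18%) ended at the last base and 38 (6.62%) within 2 bases. None of the 195 5p partner arms of the same hairpins did so, since they lie before the 3p arm. Of the remaining 14 members, miR-7029-3p ended 3 bases past the intron end and the other 13 further inside; the 14 held 125 of the 4166 counts of the group.

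**Figure D1:**
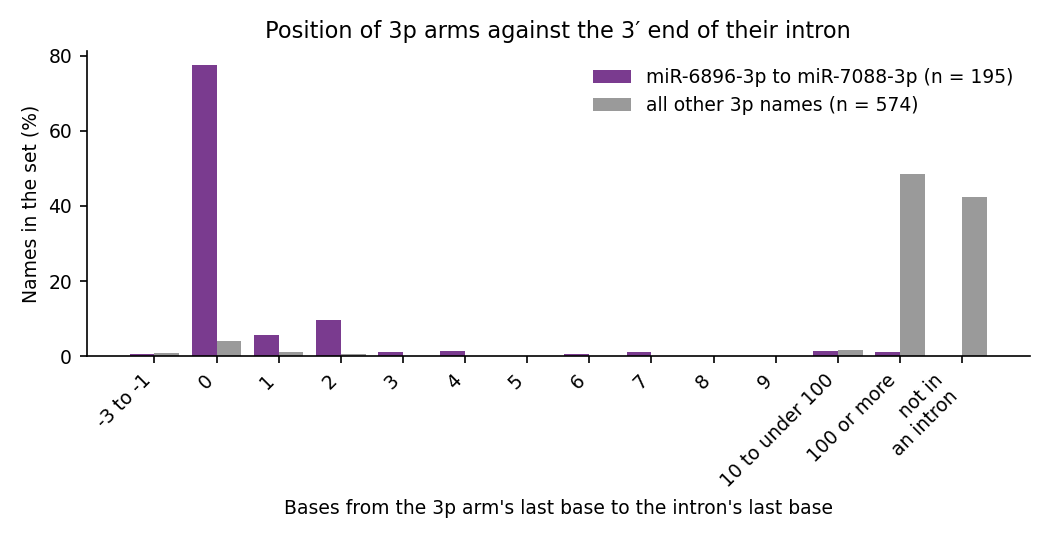
Distance from the last base of each 3p arm to the last base of its intron, in bases on the horizontal axis, with the share of names in each set in percent on the vertical axis. Purple bars are the 195 late-numbered 3p arms, of which 77.4% stood at 0 bases; grey bars are the 574 other 3p names, most of which were 100 bases or more away or in no intron.

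The sequences bore the marks of that position. An arm that ends at an acceptor ends in AG and holds part of the tract before it, so these marks are not separate evidence. Of the 170 members with a sequence, 132 (77.6%) ended in AG and 116 (68.2%) in CAG, against 54 (11.2%) and 26 (5.41%) of the 481 other 3p names with a sequence. The median share of C and U was 72.5% in the members, 54.5% in the other 3p names and 31.8% in the members' 5p partners. A first base U, which AGO2 is known to favour, stood in 53.5% of the members and in 38.3% of the other 3p names. Mature lengths ran from 18 to 25 bases with a median of 22, which was also the median of the other 3p names.

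The introns ran from 66 to 36269 bases, with a median of 479 and quartiles of 116.5 and 1243.5. Only 53 of them were 130 bases or shorter. A 3p arm within 2 bases of the acceptor end counted as at the intron end. So did a 5p arm starting within 10 bases of the donor end, a limit set after the values were seen. Both limits held for 13 members. MiR-7080-3p falls outside the first limit by its 4 bases, though its hairpin is the whole intron. The other 168 at an acceptor end had a 5p arm further inside, as in the tailed form. Both groupings rest on position alone, and how the arms are cut was not measured. Of the 13, 6 had any count: miR-6944-3p, miR-7070-3p, miR-7068-3p, miR-6973b-3p, miR-6958-3p and miR-7082-3p. Of the 168, 117 had one. For 31 members another transcript of the annotation has an exon over the arm, among them miR-7019-3p, miR-6945-3p and miR-7068-3p, and 15 have a gene on the other strand. Since the counting command held no strand option, reads of a host transcript and of a gene on the other strand cannot be told apart there. None of the 195 overlaps another name of the table, and 1, miR-6967-3p, has more than 1 genomic position.

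Totals of the Control libraries, replicate 1 before replicate 3 as in all pairs of values here, were 1006861 and 673916 counts; those of the GFP-AGO2 libraries were 2809758 and 1858354. A count of 0 allows up to 3 counts, which is 2.98 and 4.45 CPM (counts scaled to a common library size, here the total) in the Control libraries and 1.07 and 1.61 CPM in the GFP-AGO2 libraries. These limits and the intervals below cover counting error only, since copies made by PCR are counted as separate reads. The 16 miR-200 and miR-183 family names known from epithelia and sensory cells held 23.4% to 23.92% of each Control library and 2.607% to 5.102% of each GFP-AGO2 library; miR-429-5p was listed at 0 in 3 libraries and miR-200c-5p in 2. The 7 neuronal marker names held 1.333% to 1.545% and 1.8% to 1.99%, with none at 0. The 8 markers of blood, vessels and immune cells held 0.3563% to 0.487% and 0.03545% to 0.1672%; miR-126a-5p was listed at 0 in every library and miR-223-3p in 3.

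Of the 195 names, 130 had a count in at least 1 library and 65 (33.3%) in none. Over all 1900 names 794 (41.8%) had none, and 207 (36.1%) of the other 3p names had none. Per library, 80 and 61 names had a count in Control, against 91 and 86 in GFP-AGO2. More members were seen in the deeper libraries. Thinned to the smallest total, 673916 counts, the expected numbers were 72.7 and 61.0 in Control and 62.7 and 65.1 in GFP-AGO2, and the groups overlapped. Only 18, 7, 34 and 24 names reached 10 counts in the 4 libraries in that order.

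Detection was patchy among the libraries. Of the 130 names seen, 34 had a count in all 4 libraries, 27 in 3, 32 in 2 and 37 in 1. The median sum over the 4 libraries was 8 counts. Counts in Control alone were found for 18 names, none with a sum above 15, and counts in GFP-AGO2 alone for 36, none above 13. A count of 0 at these depths does not show that a name was absent from a group. The highest sum of a name seen in Control alone belonged to miR-6908-3p, from an intron of the pyridoxal kinase gene Pdxk, with 11 and 4 counts in Control and 0 and 0 in GFP-AGO2.

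Pooled over the 195 names, the Control libraries had 542 and 332 counts and the GFP-AGO2 libraries 1971 and 1321, 4166 of 6348889 in all. As shares of the library these are 0.05383% (exact Clopper-Pearson 95% interval 0.04939 to 0.05856) and 0.04926% (0.04411 to 0.05486) in Control. In GFP-AGO2 they are 0.07015% (0.06709 to 0.07331) and 0.07108% (0.0673 to 0.07502). Both GFP-AGO2 libraries lay above both Control libraries. The group means were 0.05155% ± 0.003229 (SD, n = 2) and 0.07062% ± 0.0006619 (SD, n = 2), a ratio of 1.37. The pooled share was not tested: with 2 libraries against 2 the smallest p that an exact two-sided permutation test can give is 0.333. In tissue libraries of this kind fewer cells of a type and less RNA per cell cannot be told apart.

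The size of that difference moved with what it was measured against. When the library size was taken without the miR-200 and miR-183 names the means were 0.06753% ± 0.004554 and 0.07347% ± 0.002037, a ratio of 1.09, still without overlap. On TMM-scaled library sizes, which adjust totals so that most names stay level, the pooled level was 555.7 ± 10.84 CPM in Control and 655.7 ± 10.7 CPM in GFP-AGO2, a ratio of 1.18.

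It also moved with a few names. Without miR-6944-3p the shares were 0.04757% and 0.04036% in Control and 0.05079% and 0.04805% in GFP-AGO2, a ratio of means of 1.12. The direction of this remainder flipped with the scaling: its ratio was 0.97 on TMM-scaled sizes, with overlap, and 0.892 without the miR-200 and miR-183 names in the library size. Without the 3 most abundant names, miR-6944-3p, miR-6988-3p and miR-7019-3p, the shares of the other 192 were 0.04132% and 0.03457% in Control and 0.03883% and 0.03578% in GFP-AGO2. There the groups overlapped, with a ratio of means of 0.983; on TMM-scaled sizes it was 0.849 and without the miR-200 and miR-183 names 0.78, both with GFP-AGO2 lower and no overlap. The choice to leave out these 3 was made after their values were seen.

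**Figure D2:**
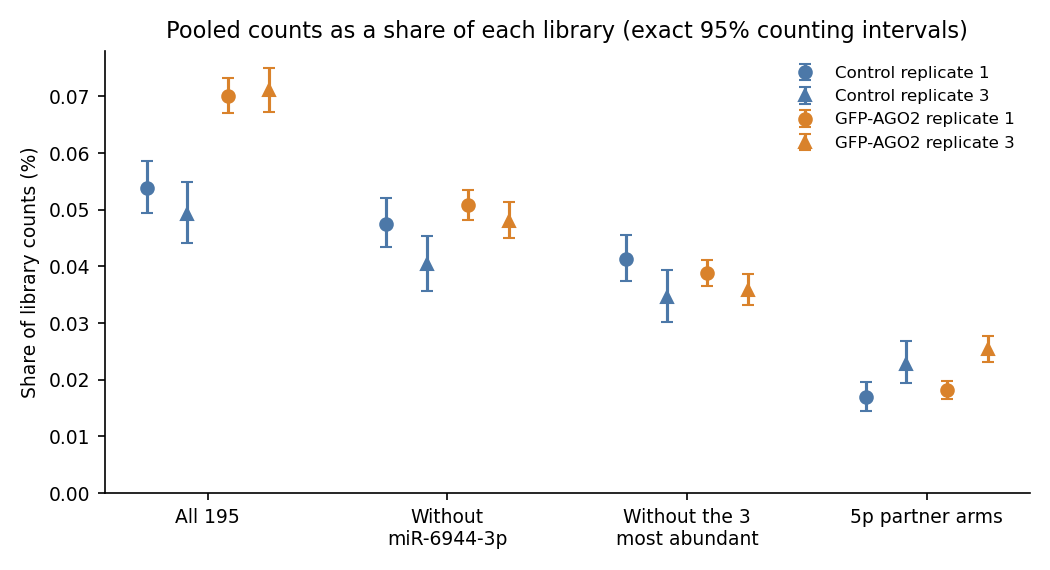
Pooled counts as a percent of each library's miRNA counts, on a vertical axis that starts at 0, for all 195 names, for the set without miR-6944-3p, for the set without the 3 most abundant names and for the 195 5p partner arms. Points are the 4 libraries, blue for Control and orange for GFP-AGO2, with exact 95% counting intervals; the groups stand apart for all 195 names and overlap without the 3 most abundant. On TMM-scaled sizes, not drawn, the direction without miR-6944-3p flips and GFP-AGO2 is lower without the 3 most abundant.

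The counts were concentrated on few names: 6 held over 50% of them. MiR-6944-3p stood first and miR-6988-3p second in every library. MiR-6944-3p (chr13:55477681-55477703, minus strand) made up 11.6% and 18.1% of the group's counts in the Control libraries, against 27.6% and 32.4% in the GFP-AGO2 libraries. MiR-6988-3p (chr19:6051371-6051392, plus strand) made up 8.49% and 6.33% in Control and 11.6% and 11.7% in GFP-AGO2. Further places differed between libraries: miR-7004-3p came next in Control replicate 1, and miR-7019-3p in the other 3 libraries.

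Members were tested one by one with edgeR on the whole table, and only 25 of the 195 (12.8%) had counts high enough to enter. Among them 1 was called higher and 1 lower in GFP-AGO2 at an adjusted p under 0.05, and 23 were not called. This is 8% of the members tested, where 34.4% of all 457 names tested were called, 17.3% higher and 17.1% lower. The members were also less precisely measured. Their median count per library was 16 against 79.5 over all names tested, and the median standard error (SE) of their log2 fold changes was 0.63 against 0.35. Members tested passed through their counts, so these figures do not stand for the 170 that were not tested.

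MiR-6944-3p, whose sequence and whole-intron hairpin are shown above, was the member that rose. It had 63 and 60 counts in the Control libraries, against 544 and 428 in the GFP-AGO2 libraries. On TMM-scaled library sizes these are 65.5 and 99.0 CPM against 183 and 210 CPM. The GFP-AGO2 libraries lay above the Control libraries by more than the spread within either group, with means of 82.3 ± 23.7 and 197 ± 19.0 CPM (SD, n = 2 each). The log2 fold change was 1.27 (SE 0.262), which is 2.41-fold, with an adjusted p of 0.0167 in edgeR's quasi-likelihood test. The call held in each of 10 other fits, with log2 fold changes of 1.04 to 1.54; without Control replicate 1 the adjusted p was 0.047. As a pool, the neuronal marker names held larger shares of the total counts in both GFP-AGO2 libraries. On TMM-scaled sizes their groups overlapped, with a ratio of 1.13. Singly these markers went both ways. MiR-9-5p and miR-9-3p were called higher in GFP-AGO2 (log2 fold changes 1.14 and 1.07), miR-138-5p was called lower (-0.82), and the rest were not called. Their part in the result was not tested.

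MiR-7004-3p was the member that fell. It ends at the acceptor of a 3166-base intron of Atp9a, a gene for a membrane protein of the lipid flippase family (chr2:168640696-168640716, minus strand). It had 23 and 12 counts in the Control libraries, against 9 and 3 in the GFP-AGO2 libraries, or 23.9 and 19.8 CPM against 3.03 and 1.47 CPM. Both GFP-AGO2 libraries lay below both Control libraries although they were sequenced more deeply. The name entered the test through its Control counts. Its 3 counts in GFP-AGO2 replicate 3 are no more than a count of 0 allows, so the size of the fall is uncertain. The log2 fold change was -3.20 (SE 0.626), 9.19-fold lower in GFP-AGO2, with an adjusted p of 0.0141. Without Control replicate 1 the value was -2.99 with an adjusted p of 0.0846, and the name was no longer called. The miR-200 and miR-183 names and, as a pool, the blood, vessel and immune markers also held smaller shares in both GFP-AGO2 libraries. In the latter pool miR-143-3p was by far the most abundant name tested, at a mean of 2345 CPM. It was not called (log2 fold change -2.29, adjusted p 0.0637). MiR-451a, miR-146a-5p and miR-150-5p were called lower (-3.63, -2.17 and -2.39), and the rest of that pool did not enter the test. The part of these markers in the result was not tested.

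MiR-6988-3p came closest to a call among the others. It had 46 and 21 counts in Control and 229 and 155 in GFP-AGO2, or 47.8 and 34.7 CPM against 77.1 and 76.1 CPM, without overlap. The log2 fold change was 0.88 (SE 0.284) with an adjusted p of 0.0644. Scaled by total counts alone it was 1.09 with an adjusted p of 0.0419, and without the filter on low counts it was 1.11 with an adjusted p of 0.0204. Each of these settings also raised the median of all names, by 0.22 and 0.24 on the log2 scale.

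MiR-7019-3p lies in an intron of Pink1, the gene for a mitochondrial quality-control kinase. It had 17 and 18 counts in Control and 107 and 73 in GFP-AGO2, or 17.7 and 29.7 CPM against 36 and 35.8 CPM. MiR-7015-3p lies in Smap2, a gene for a regulator of Arf proteins in vesicle traffic. It had 13 and 9 counts in Control and 61 and 59 in GFP-AGO2, or 13.5 and 14.9 CPM against 20.5 and 28.9 CPM. For both names the groups did not overlap, but the log2 fold changes of 0.63 (SE 0.394) and 0.80 (SE 0.429) were not called, with adjusted p values of 0.273 and 0.208.

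The other 6 of the 10 most abundant had log2 fold changes between -0.99 and 0.69, and none was called. MiR-6914-3p, from Ankrd52, a gene for a subunit of a protein phosphatase, had 20 and 7 counts in Control and 47 and 24 in GFP-AGO2. MiR-7070-3p, from the F-box gene Fbxw9, had 14 and 4 counts against 53 and 36. MiR-6945-3p, from Pdlim7, a gene for an actin-associated protein, had 10 and 11 against 44 and 26. These 3 gave log2 fold changes of -0.25, 0.69 and -0.01. MiR-7068-3p, from Cherp, a gene for an RNA-processing and calcium-related protein, had 11 and 9 counts in Control and 40 and 32 in GFP-AGO2. MiR-6906-3p, from Spock2, a gene for a brain proteoglycan, had 20 and 4 against 49 and 20. MiR-7047-3p had 11 and 14 counts against 32 and 12. The last 3 gave log2 fold changes of 0.16, -0.11 and -0.99. The CPM of the groups overlapped for 4 of the 6; both GFP-AGO2 libraries lay above Control for miR-7070-3p and below Control for miR-7047-3p.

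**Figure D3:**
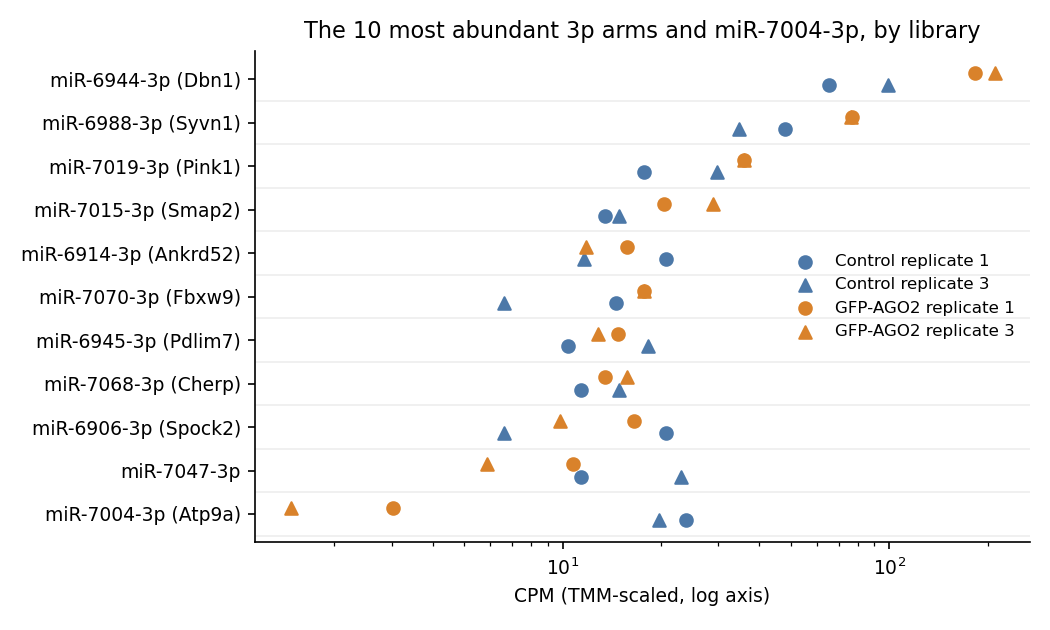
TMM-scaled CPM on a log axis of the 10 most abundant late-numbered 3p arms, with host genes for all but miR-7047-3p, and of miR-7004-3p; each point is 1 library, blue for Control and orange for GFP-AGO2, with circles for replicate 1 and triangles for replicate 3. MiR-6944-3p ran from 65.5 to 210 CPM with both GFP-AGO2 libraries highest, and miR-7004-3p from 1.47 to 23.9 CPM with both GFP-AGO2 libraries lowest.

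Among the 15 fitted members outside the 10 most abundant, miR-7004-3p was the only call. MiR-6975-3p, from the RNA helicase gene Ddx39b, had the highest fold change of all members tested. It had 2 and 1 counts in Control against 24 and 13 in GFP-AGO2, a log2 value of 1.89 (SE 0.806) with an adjusted p of 0.129. The name entered the test through its GFP-AGO2 counts, and such entry favours a high fold change. MiR-6989-3p, from the kinase gene Map4k2, had 16 and 7 counts against 20 and 10, a log2 value of -1.27 (SE 0.569) with an adjusted p of 0.142. In neither did the CPM of the groups overlap, yet both missed the threshold. MiR-7063-3p, from Ap2a2, a gene for a clathrin adaptor subunit, had 0 and 6 counts in Control and 42 and 23 in GFP-AGO2. Its log2 value was 1.58 (SE 1.198) with an adjusted p of 0.361. With 0 counts in Control replicate 1 it also needed its GFP-AGO2 counts to enter. Without Control replicate 3, when only the library with 0 counts stood for Control, it was called, at an adjusted p of 0.0438.

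Several members were uneven within the Control group. MiR-6952-3p (Scrib, a cell polarity gene), miR-6953-3p (Grina) and miR-6900-3p (Ndufa10, a subunit of the respiratory chain) had 18, 6 and 10 counts in Control replicate 1 and 0 each in Control replicate 3. In GFP-AGO2 replicates 1 and 3 miR-6952-3p had 50 and 16 counts, miR-6953-3p 37 and 13, and miR-6900-3p 33 and 12. Their log2 fold changes of 0.28, 1.39 and 0.55, in that order, were not called. Their standard errors, from 1.072 to 1.15, were among the widest. MiR-6911-3p (Dazap1, an RNA-binding protein) had 8 and 2 counts in Control and 44 and 24 in GFP-AGO2, and miR-7000-3p (Mapk8ip1, a kinase scaffold) had 2 and 4 against 36 and 13. Their log2 fold changes of 1.11 and 1.21 were not called, with adjusted p values of 0.231 and 0.313. Of the names in this paragraph, miR-6953-3p and miR-7000-3p entered the test through their GFP-AGO2 counts.

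The remaining 6 tested members had log2 fold changes from -0.58 to 0.74 and adjusted p values of 0.34 or more. MiR-6973b-3p, from Gfra4, a gene of the neurotrophic receptor family, had 7 and 4 counts in Control and 32 and 26 in GFP-AGO2. MiR-6962-3p, from the activin receptor gene Acvr1b, had 6 and 9 against 21 and 13. These gave the ends of that range, 0.74 and -0.58, and miR-6973b-3p entered the test through its GFP-AGO2 counts. MiR-6928-3p (Atp6v0a1, a subunit of the vacuolar proton pump) had 4 and 7 counts against 21 and 17, and miR-6958-3p (Dennd6b) 8 and 1 against 23 and 5. Scaled to library size these were near level, with log2 fold changes of 0.046 and -0.046. MiR-7052-3p, from the deubiquitinase gene Josd2, was even across the libraries, with 11.4 and 11.6 CPM in Control and 11.1 and 10.3 CPM in GFP-AGO2. The sixth, miR-7080-3p, is given with its 5p arm below.

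Over the 25 tested members the median log2 fold change was 0.55, with 16 above zero and 9 below, and the range was -3.20 to 1.89. Over all names tested the median was -0.01. The filter bears on these figures: miR-6975-3p, for one, had 2.08 and 1.65 CPM in Control against 8.08 and 6.38 CPM in GFP-AGO2 and entered, while miR-7055-3p, with 7.28 and 16.5 CPM against 3.37 and 0.98 CPM, did not. They are a description of the names that entered, not of the 195. In the other scalings, by DESeq2 size factors, RLE and total counts alone, the members' median was 0.63, 0.54 and 0.73, beside medians over all names of -0.01, -0.01 and 0.20. At an unadjusted p under 0.05 there were 3 members, against 210 of all 457 names. The CPM of both GFP-AGO2 libraries lay above both Control libraries for 10 members and below both for 4, and overlapped for 11. Over all names tested these shares were 36.8% above and 35.2% below.

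**Figure D4:**
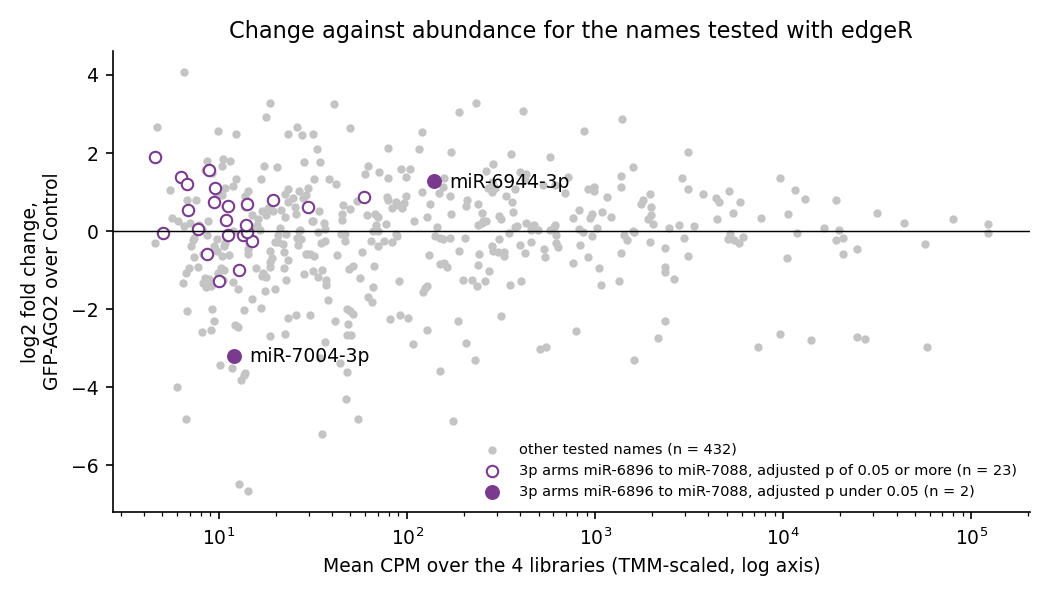
Log2 fold change of GFP-AGO2 over Control against mean TMM-scaled CPM over the 4 libraries, on a log axis, for the 457 names tested. Grey points are other names, open purple circles the 23 late-numbered 3p arms that were not called and filled circles miR-6944-3p and miR-7004-3p, and most of the purple circles lie at the low end of the abundance axis.

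Of the 34 members with a count in every library, 13 had too few counts for the test. MiR-7055-3p, from Slc17a7, the gene for a vesicular glutamate transporter of excitatory neurons, had 7 and 10 counts in Control and 10 and 2 in GFP-AGO2. MiR-6948-3p, from the RNA-processing gene Acin1, had 1 and 1 against 32 and 9. MiR-6899-3p, which lies at the end of the longest intron of the set, 36269 bases of the transcription factor gene Klf7, had 19 and 2 against 11 and 7. MiR-6915-3p had 6 and 6 counts in Control and 1 and 1 in GFP-AGO2. The other 9 were miR-7027-3p, miR-7044-3p, miR-6994-3p, miR-7043-3p, miR-6979-3p, miR-6964-3p, miR-7013-3p, miR-7067-3p and miR-6932-3p, with sums from 28 down to 9 counts.

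Some members share a source or a seed. Each of 5 host genes holds 2 members, and Ankrd52 is the only one with a member above 10 counts: miR-6914-3p and miR-6915-3p from its introns had 98 and 14 in all. In GFP-AGO2 replicates 1 and 3 miR-6914-3p had 47 and 24 counts where miR-6915-3p had 1 and 1. Among the 170 sequences there were 163 distinct seeds, and 6 seeds were shared by 13 members. The seed CACCCUG of miR-7068-3p recurs in miR-7018-3p and miR-7023-3p, which had no counts, so all 92 counts with this seed came from miR-7068-3p. In the same way all 142 counts with CUCACUG came from miR-7015-3p and all 91 with CUGAGCU from miR-6945-3p. The seed GCUCUCU of miR-6973b-3p and miR-7063-3p was carried by both, with 69 and 71 counts. The seed CUGUUCU of miR-6932-3p and miR-7039-3p also occurs in miR-26a-2-3p and miR-26b-3p, and AGGCUCU of miR-7070-3p in miR-344g-3p.

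The 13 members with both arms at the intron ends, which leave out miR-7080-3p, pooled to 104 and 78 counts in Control, against 700 and 534 in GFP-AGO2. Their mean shares were 0.01095% ± 0.0008804 and 0.02682% ± 0.002703 (SD, n = 2 each), without overlap, and miR-6944-3p supplied most of these counts. Without miR-6944-3p the counts were 41 and 18 against 156 and 106, with mean shares of 0.003372% ± 0.0009907 and 0.005628% ± 0.0001074, also without overlap and a ratio of 1.67. On TMM-scaled sizes that ratio was 1.44, and without the miR-200 and miR-183 names in the library size it was 1.32. The 168 members with only the 3p arm at an intron end pooled to 417 and 249 counts against 1223 and 736. Their mean shares were 0.03918% and 0.04157%, with overlap, and their ratio was above 1 on total counts (1.06) and below 1 on TMM-scaled sizes (0.915) and without the miR-200 and miR-183 names (0.842, no overlap). The difference between these 2 sets was not tested.

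Both arms of a hairpin are counted separately, so the 5p partners give a readout that the choice of members did not use. Of the 195 hairpins, 99 had more 3p than 5p counts, 45 had more 5p, 11 had equal counts and 40 had none. Both arms were seen for 81, the 3p arm alone for 49 and the 5p arm alone for 25. Among the 48 hairpins with at least 20 counts, 37 had more 3p counts, and in 23 the 3p arm held over 90%. The 3p arms held 76.1% (exact 95% interval 72.8 to 79.2) and 68.3% (64 to 72.4) of the arm counts in Control. In GFP-AGO2 they held 79.5% (77.8 to 81) and 73.7% (71.6 to 75.7), so the groups overlapped. Without the hairpins of miR-6944, miR-6988 and miR-7019 the 3p shares were 71.4% and 60.2% in Control and 68.6% and 58.7% in GFP-AGO2.

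**Figure D5:**
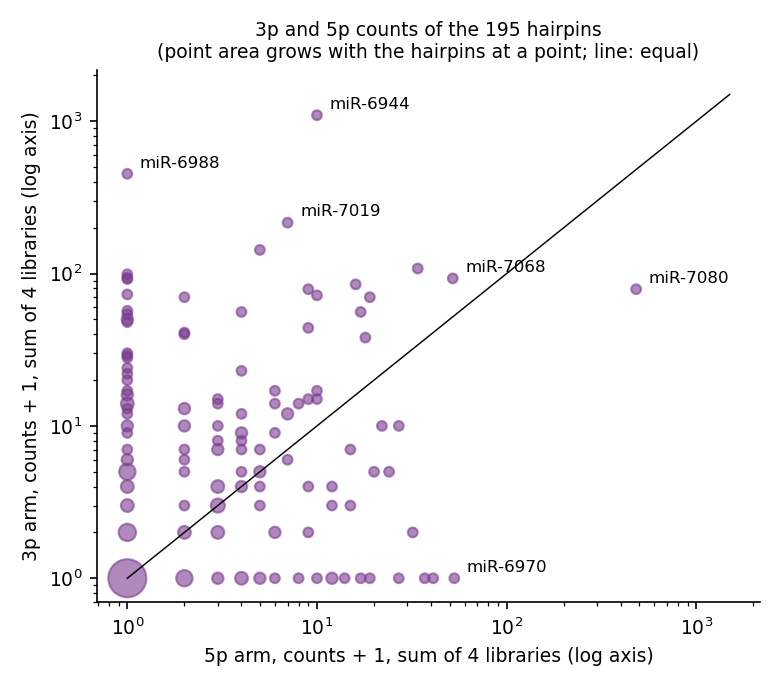
Counts of the 3p arm against counts of the 5p arm for the 195 hairpins, each summed over the 4 libraries with 1 added, on log axes. Point area grows with the number of hairpins at a point and the line marks equal counts; more hairpins lie above the line than below it, and miR-7080 lies far below it.

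The 5p arms together had 170 and 154 counts in the Control libraries, against 509 and 471 in the GFP-AGO2 libraries. Their mean shares were 0.01987% ± 0.00422 and 0.02173% ± 0.005112 (SD, n = 2 each), and the groups overlapped; their ratio was 1.09 on total counts and 0.934 on TMM-scaled sizes. Over all 457 names tested 17.3% were called higher and 17.1% lower. Of the 5p arms only 4 were tested, and 1 was called in each direction. The most abundant by far was miR-7080-5p, the start of the Cpne7 intron, with 34 and 17 counts in Control and 229 and 201 in GFP-AGO2, or 35.3 and 28.1 CPM against 77.1 and 98.6 CPM. It rose, with a log2 fold change of 1.45 (SE 0.297) and an adjusted p of 0.0165, but without Control replicate 3 the adjusted p was 0.0581. Its 3p arm had 10 and 4 counts against 26 and 38, with a log2 value of 0.63 (SE 0.645) and an adjusted p of 0.496; the difference between the arms was not tested.

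MiR-6933-5p, from Pgs1, a gene of phospholipid synthesis, had 15 and 13 counts in Control and 4 and 4 in GFP-AGO2, or 15.6 and 21.5 CPM against 1.35 and 1.96 CPM. Like miR-7004-3p, it entered the test through its Control counts. It fell, with a log2 fold change of -3.44 (SE 0.663) and an adjusted p of 0.0138; without Control replicate 1 or 3 the adjusted p was 0.0502 or 0.0648. Its 3p arm had no count in any library. MiR-6970-5p, whose 3p arm also had none, had 10 and 3 counts against 14 and 25 and was not called. MiR-7068-5p had 7 and 12 against 12 and 20 and was not called. By contrast, miR-6944-5p had 2 and 0 counts in Control and 4 and 3 in GFP-AGO2, and miR-6988-5p had none in any library.

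Older, better-known mirtrons were read beside these values. The 8 names of miR-877, miR-1224, miR-1981 and miR-702, both arms of each, held 737 and 490 counts in Control, against 3434 and 3092 in GFP-AGO2. Their mean shares of the library were 0.07295% ± 0.0003454 and 0.1443% ± 0.03123 (SD, n = 2 each), a ratio of 1.98, or 1.7 on TMM-scaled sizes. In each library the 8 names held more counts than the 195 members pooled, but the members are 3p arms only. A 5p arm, miR-1981-5p, had the most of the 8, with 348 and 235 counts in Control and 2054 and 2044 in GFP-AGO2. The 3p arms among the 8 held fewer counts than the members in every library. Of the 6 tested, 4 rose, 1 fell and 1 was not called, beside 17.3% called higher and 17.1% lower over all 457 names tested. MiR-702-3p, which like the members ends within 2 bases of its acceptor, had 10 and 9 counts against 135 and 126 and rose by 2.11 on the log2 scale (SE 0.398, adjusted p = 0.0132). MiR-1981-3p, in the same position, had 27 and 19 against 245 and 217 and rose by 1.67 (SE 0.288, adjusted p = 0.0097). MiR-877-3p had 104 and 70 counts against 434 and 288 and was not called, with a log2 value of 0.36 (SE 0.185). The one that fell was a 5p arm, miR-1224-5p, with 166 and 117 counts against 199 and 134 and a log2 value of -1.46 (SE 0.194). When a library was left out, the calls of miR-1981-3p and miR-1224-5p held each time, while miR-702-3p lost its call, at an adjusted p of 0.0564, when Control replicate 1 was left out. MiR-1981-5p was not called without either Control library, at 0.0571 and 0.0561. MiR-877-5p was not called without either Control library or GFP-AGO2 replicate 3, at 0.0602, 0.0803 and 0.0584, nor with DESeq2 at 0.0518.

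The 27 3p names numbered from 5000 up to the members differed from the members in position and in pooled share. Only 5 of them ended within 2 bases of an intron end. Their pooled counts were 93 and 63 in Control and 125 and 101 in GFP-AGO2. Mean shares were 0.009292% ± 7.9e-05 and 0.004942% ± 0.0006973 (SD, n = 2 each), lower in GFP-AGO2. The share of all members was higher there, but without the 3 most abundant members the groups overlapped, with a ratio of 0.983. On TMM-scaled sizes that remainder was lower in GFP-AGO2 too, with a ratio of 0.849. The difference between the sets was not tested.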

How the data were processed

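Small RNA was measured by sequencing after AGO2 RIP in 2 GFP-AGO2 and 2 Control libraries. The deposited values are whole-number counts per mature miRNA name, made per the file headers with featureCounts 1.4.6-p1 on primary alignments, with no strand option. Cutadapt, STAR and the build mm10 come from the submitters' processing notes; their versions and settings were not stated there. Columns were tied to samples by their titles.

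Fold changes, GFP-AGO2 over Control, were fitted on the whole table with edgeR 4.0.16 in R 4.3.3 (quasi-likelihood F test, two-sided, TMM scaling, filterByExpr at a minimum count of 10). P-values were adjusted by Benjamini-Hochberg over the 457 names left, with a threshold of 0.05. The script was tested on simulated counts. CPM uses TMM-scaled library sizes, and shares use total counts. Intervals are exact Clopper-Pearson (scipy 1.17.1).

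Each name was placed in the GENCODE M21 intron on its strand whose 3′ end lay nearest, with up to 3 bases of overhang allowed; sequences come from RefSeq. The host gene and sequence of miR-7047-3p are not reported here. Names were matched to RefSeq by name and position.

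The text names every tested member, the 10 most abundant and members with a count in all 4 libraries; of their 5p partners, those tested and a few others are named and the rest are given pooled. MiR-6908-3p, miR-7082-3p, the 5p arms outside this rule and the members sharing a host gene were named after their values were seen. Members and lists were chosen with earlier results of these data known. Alternatives were DESeq2 1.42.0, other scalings, filters and denominators, a replicate block and leaving out each library.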

Additional observations from a re-analysis of the deposited data

How the results depend on the processing

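Detection depended on the count required: at 3 or more counts the Control libraries showed 46 and 38 members and the GFP-AGO2 libraries 63 and 55, and at 10 or more 18, 7, 34 and 24 in the 4 libraries. The difference between the groups' pooled shares, 0.0191 percentage points on all counts, was 0.00593 without the miR-200 and miR-183 counts, 0.01 on TMM-scaled sizes, 0.00545 without miR-6944-3p and -0.000639 without the 3 most abundant members, a setting added after the values were seen. Leaving out 1 library in turn gave 0.0168 to 0.0214. Members called higher were 2 with total counts alone and 2 with no filter (miR-6988-3p beside miR-6944-3p), and 1 to 2 when a library was left out. Members called lower were 2 with no filter and 2 at a minimum count of 5 (miR-6908-3p beside miR-7004-3p), and 0 to 1 when a library was left out. Over all names, calls ran from 47 to 94 higher and 43 to 106 lower when a library was left out, fewest without Control replicate 1; the library left alone in its group is assumed to vary like the other group. With no filter 118 names were called higher and 84 lower, of 1106 tested.

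Of 250 member fold changes over 10 other fits, 221 kept call and sign, 25 in 9 uncalled members changed sign, 3 calls were gained and 1 was lost. The replicate numbers gave no sign of pairing between the libraries (correlation of deviations -0.061 over 457 names). With 2 libraries per group this cannot exclude pairing. With a replicate block 1 member was called higher and 1 lower, and 79 and 85 of all names. Depth limits single names: 75 of the 130 members seen had fewer than 10 counts in all, and none of these passed the filter.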
